A study of Mus musculus with 16 samples.

Results

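Common monocyte progenitors (cMoPs) of mice that had drunk antibiotics were compared with cMoPs of mice that had drunk control water, on 5 of the 16 arrays of the study. All 5 cMoP arrays were used, 3 after antibiotic water and 2 after control water, and each array gave 1 log2 signal for each of 22180 genes. The mice were wild-type C57BL/6. For 3 weeks the antibiotic group drank water with ampicillin, metronidazole, neomycin and vancomycin, each at 1 g/L, and the control group drank the same water without these 4 drugs. Both waters contained 2% sucrose, so no group drank plain water. The other 11 arrays hold common myeloid progenitors (CMPs, 3 arrays after each water) and granulocyte-monocyte progenitors (GMPs, 3 after antibiotics and 2 after control water) sorted from the bone marrow of mice treated alike.

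The cMoP is the bone marrow progenitor that is committed to the monocyte lineage. It arises downstream of earlier myeloid progenitors, carries the receptor for colony-stimulating factor 1 (CD115, encoded by Csf1r) together with Kit and Ly6C, and gives rise to the inflammatory monocytes of blood. Bacteria of the gut release products that reach the marrow, and oral antibiotics are used to deplete those bacteria. Here cMoPs were sorted as lineage-negative cells that were c-Kit+, CD105-, CD115+ and Ly6C+. Only 2.6 ng of RNA went into the amplification for each array. Whether an array held cells of 1 mouse or of several is not stated in the labels. P-values therefore measure the spread between these samples, which may be partly technical, and in a bulk sample fewer cells of a type and less RNA per cell cannot be told apart.

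Csf1r, F13a1 and Klf4 fitted the label of the sort, while some other genes of the gate did not set cMoPs apart. Csf1r had a mean log2 signal of 9.29 after antibiotics and 9.39 after control water in cMoPs, against 6.52 to 7.61 in the 4 groups of CMPs and GMPs. F13a1, a transglutaminase of monocytes, had means of 10.58 and 10.59 in cMoPs and at most 9.11 in the other groups. Klf4, a transcription factor of monocyte differentiation, had means of 8.6 and 8.11 in cMoPs and at most 5.88 elsewhere. Ly6c2 had means of 12.72 and 12.67 in cMoPs, close to the 12.59 and 12.52 of GMPs. Eng, the gene of CD105, had 7.03 and 7.22 in cMoPs, 6.41 and 7.02 in GMPs and 8.17 and 8.5 in CMPs. The gate markers Kit, Csf1r and Ly6c2 differed little between the waters. Kit had log2 signals of 9.24, 9.34 and 9.37 after antibiotics and 9.67 and 9.34 after control water, Csf1r differed by -0.1 ± 0.19 (SE), and Ly6c2 by 0.05 ± 0.27. Of the 12 measured genes of the sort gate and lineage panel, none was called, where 0.131% of all genes were. Their differences ran from -0.33 to 0.37. In 2 of them all antibiotic arrays lay above both control arrays and in 2 below (33.3%, against 21% of all genes).

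Among the 5 cMoP arrays 1 stood apart. Pearson correlations over all genes ran from 0.986 to 0.991, and the first principal component of these arrays, with 33.8% of the variance, placed control replicate 1 at 38 and the other 4 arrays between -12.3 and -4.2. With only 2 control arrays, each of them carries much weight. Values without control replicate 1 are therefore given beside the called genes and beside several other values, though not all, that it moves. Without it, only Clec4a2 and Hal of the called genes described next passed. Markers of other cell types were also compared. The mean log2 signal of 10 neutrophil markers, Ltf, Camp and Ngp among them, was 7.26 to 7.62 after antibiotics and 7.39 to 7.49 after control water. That of 8 macrophage markers was 4.74 to 4.98 and 4.68 to 4.88, and that of 8 monocyte markers 9.84 to 10 and 9.81 to 9.91. The means of 3 erythroid markers, 5.4 to 5.47 and 5.17 to 5.31, did not overlap between the waters. Nor did those of 4 stromal markers, 4.11 to 4.18 and 4.23 to 4.27. No marker of any of the lists for these or for dendritic, erythroid, megakaryocytic, mast, B, T, NK or stromal cells was called. As only 0.131% of all genes were called, that count says little about the mixture of cells. The largest differences among these markers were those of Gp9 (-0.95), Cpa3 (0.93) and Car1 (0.7). The mast cell marker Fcer1a was the only marker with both means below the dim limit of 2.89. That limit is the lowest lower quartile of the 16 arrays. Detection calls were not part of the data used, and a mean under the limit may be background.

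At a Benjamini-Hochberg adjusted p under 0.2, the rate the study states, 29 of 22180 genes differed between the waters in cMoPs, which is 0.131% of the genes tested. The test was limma's moderated test on all 16 arrays. Of these genes 20 rose (0.0902% of all genes) and 9 fell (0.0406%). Those that rose held 3 neighbouring C-type lectin receptor genes, the inhibitory receptor gene Lilrb4a, the lectin Fcnb, several enzymes of lipid, amino acid and sugar metabolism, and 2 small nucleolar RNAs. Those that fell were led in size by 2 predicted genes, the growth factor Gdf3 and the cyclophilin Ppic. In all 29 genes the 3 antibiotic arrays lay on one side of both control arrays, as they did in 21% of all genes (9.59% above and 11.4% below). Of the 29, 16 differed by 2-fold or more and 13 by less. Only Clec4a2 also passed an adjusted p of 0.05, and 1375 genes (6.2%) had an unadjusted p under 0.05, where 1109 are expected with no difference.

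The count depended on single arrays. Without cMoP control replicate 1, limma called 3 genes, Clec4a2, Hal and Slc13a3, the last named here after its value was seen. Without cMoP control replicate 2, it called 226, and 22 of the 29 were among them. Without cMoP antibiotic replicate 1, 2 or 3 it called 5, 6 and 9, and without CMP antibiotic replicate 2, which enters only through the shared spread, 4. Most of the calls thus lie near the threshold. The sign of all 29 differences was the same in each of these fits. Leaving out 1 array could not change it, because all antibiotic arrays lay on one side of both control arrays.

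**Figure D1:**
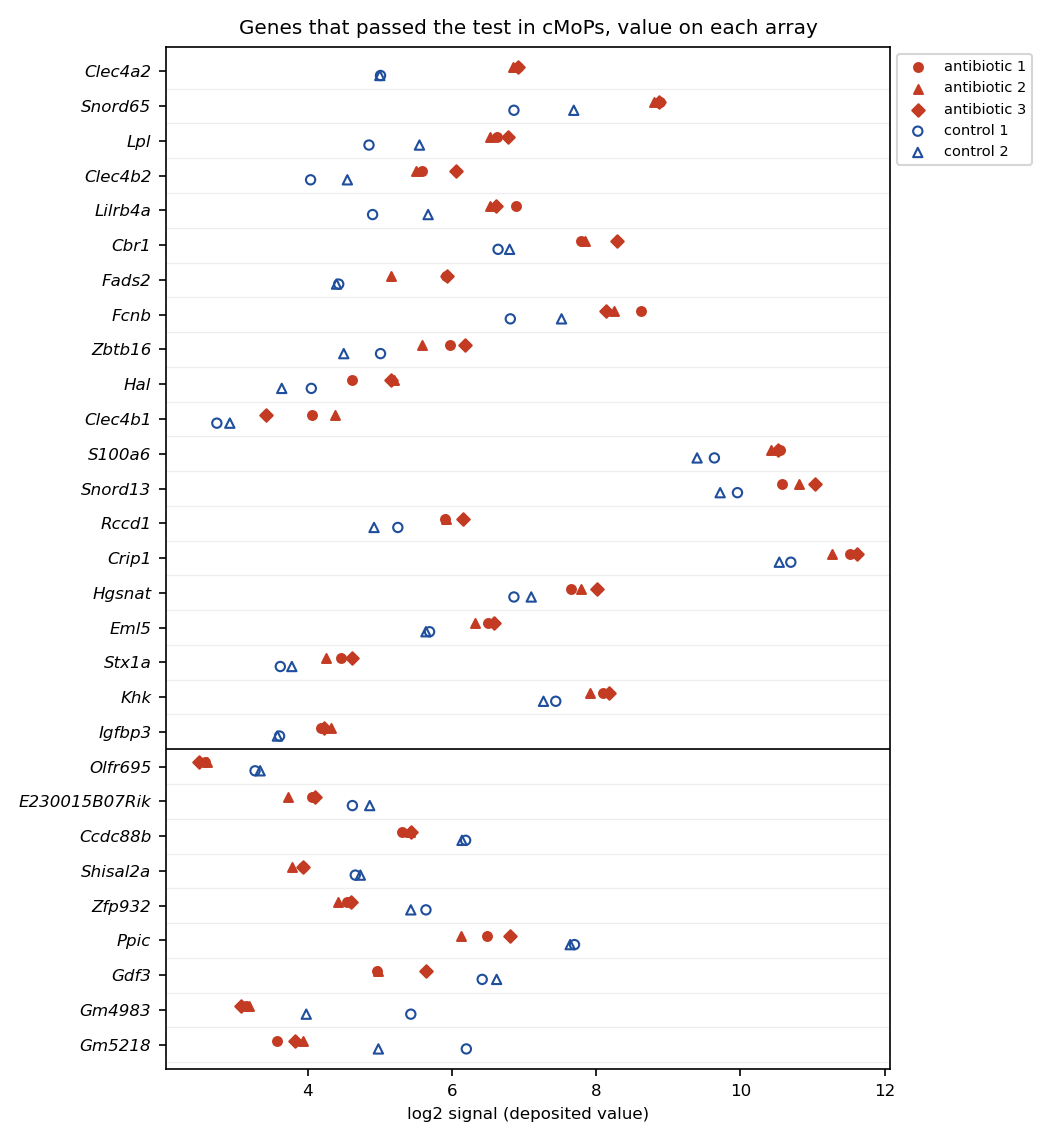
Log2 signal of the 29 called genes on each of the 5 cMoP arrays, with filled red symbols for antibiotic water, open blue symbols for control water and genes ordered by their log2 difference. In every gene shown the 3 antibiotic points lie on one side of the 2 control points, from Clec4a2 (difference 1.89) to Gm5218 (difference -1.81).

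The C-type lectin receptor genes Clec4b1, Clec4a2 and Clec4b2 rose together. They encode surface receptors of myeloid cells that bind sugars. Clec4a2 encodes DCIR, an inhibitory receptor with a cytoplasmic tyrosine motif, and Clec4b1 and Clec4b2 encode the related receptors DCAR and DCAR1. Clec4a2 had log2 signals of 6.92, 6.85 and 6.92 after antibiotics and of 5.01 and 5 after control water. All 3 antibiotic arrays were close to each other, both control arrays were close to each other, and the groups were far apart. The means were 6.9 ± 0.04 (SD, n = 3) and 5 ± 0.01 (SD, n = 2), a difference of 1.89 ± 0.18 (SE), or 3.71-fold, with a limma adjusted p of 0.000484. Without control replicate 1 the difference was 1.9 and the adjusted p 0.0251. Clec4a2 was called in each of the 26 other settings and sets of arrays tried, in which its difference lay between 1.84 and 1.92.

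Clec4b2 had log2 signals of 5.58, 5.5 and 6.05 after antibiotics and 4.04 and 4.55 after control water. The groups did not overlap, and the difference was 1.42 ± 0.26, or 2.67-fold (limma adjusted p = 0.122). Clec4b1 was dim. Its log2 signals were 4.06, 4.38 and 3.42 after antibiotics and 2.74 and 2.92 after control water, where the mean of 2.83 was below the dim limit, so the size of its difference of 1.12 ± 0.22 (adjusted p = 0.156) is uncertain. Without control replicate 1 the differences were 1.16 for Clec4b2 and 1.03 for Clec4b1, and neither was called (adjusted p = 0.931 and 0.943).

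The 3 genes are consecutive in the Clec4 cluster on chromosome 6 in RefSeq's order for GRCm38.p6. From one end, that order is Clec4a1, Clec4a3, Clec4a4, Clec4b1, Clec4a2, Clec4b2, 2 pseudogenes, Clec4n, Clec4d and Clec4e. A list of 11 genes was read for this receptor group, the 9 named above with Clec4f and Clec4g. In it 3 were called (27.3%, against 0.131% of all genes) and 7 had a positive difference. The median difference was 0.16, against -0.01 over all genes (0.09 without antibiotic replicate 1). The list was chosen with earlier results of these data known, which name Clec4a2 and Clec4b2, so its share of calls is not independent support. The neighbours outside the run of 3 were not called. Clec4a3 had log2 signals of 5.87, 5.52 and 5.96 after antibiotics and 5.3 and 5.49 after control water, a difference of 0.39 ± 0.25 (adjusted p = 0.88). Clec4a4 and Clec4n had differences of -0.35 ± 0.19 and -0.33 ± 0.17 with antibiotic means below the dim limit. Genes of this cluster are paralogs, and whether a probe set also takes up RNA of a neighbour was not tested.

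**Figure D2:**
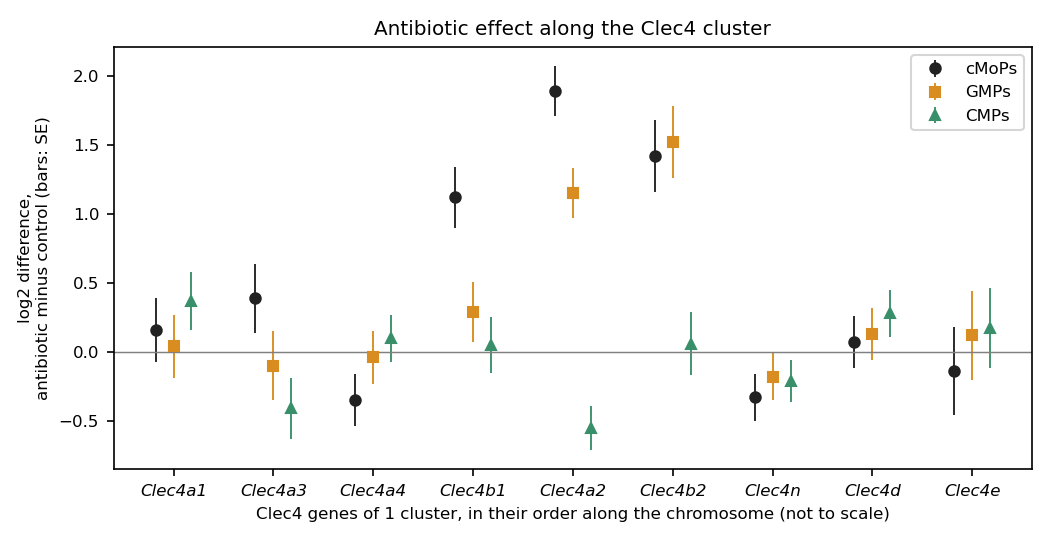
Log2 difference between antibiotic and control water in cMoPs, with its standard error, for the Clec4 genes in their order along chromosome 6, and the same differences in CMPs and GMPs. Clec4b1, Clec4a2 and Clec4b2, next to each other in the order, have differences of 1.12, 1.89 and 1.42 in cMoPs, while Clec4a3 and Clec4a4 on one side have 0.39 and -0.35.

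The sequences before the starts of these 3 neighbours are shown because the genes rose together. They are the 250 bases upstream of the annotated start in RefSeq's GRCm38.p6 table, on the plus strand, at chr6:123049712-123049961 for Clec4b1, chr6:123122440-123122689 for Clec4a2 and chr6:123172773-123173022 for Clec4b2. Capitals mark the letters GAGGAA, the core bound by the myeloid transcription factor PU.1, on either strand.
Clec4b1: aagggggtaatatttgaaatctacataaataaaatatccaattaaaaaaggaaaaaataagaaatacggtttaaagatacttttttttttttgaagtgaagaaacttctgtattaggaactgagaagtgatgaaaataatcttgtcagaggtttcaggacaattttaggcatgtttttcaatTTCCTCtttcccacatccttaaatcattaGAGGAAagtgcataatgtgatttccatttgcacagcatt
Clec4a2: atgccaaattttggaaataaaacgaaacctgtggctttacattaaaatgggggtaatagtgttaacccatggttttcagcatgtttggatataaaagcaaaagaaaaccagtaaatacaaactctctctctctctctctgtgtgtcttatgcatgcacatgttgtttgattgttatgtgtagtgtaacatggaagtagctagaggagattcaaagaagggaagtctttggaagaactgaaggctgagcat
Clec4b2: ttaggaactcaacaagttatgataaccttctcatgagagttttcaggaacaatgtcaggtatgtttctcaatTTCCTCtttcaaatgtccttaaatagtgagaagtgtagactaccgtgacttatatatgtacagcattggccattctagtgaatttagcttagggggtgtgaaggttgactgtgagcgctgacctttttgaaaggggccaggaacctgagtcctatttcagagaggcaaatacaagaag
Clec4b1 held 2 matches, at -68 to -63 and -39 to -34 from its start, Clec4b2 held 1 at -178 to -173, and Clec4a2 held 0. These letters were found on either strand in 23.3% of the 32851 promoters of that length, and at 6 of the 9 genes of the Clec4 list that had a promoter in the table (66.7%, against 25.9% of all genes). Among the 20 genes that rose, 14 had a promoter in the table and 5 of them held the letters (35.7%). The C/EBP letters TTGCNNAA were found in 2 of these 14 promoters (14.3%, against 9.56% of all promoters). None of the 3 promoters printed above was among these. A match is a description of the letters and not a measured site.

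Other genes of myeloid receptors and granules also rose. Lilrb4a encodes an inhibitory immunoglobulin-like receptor of myeloid cells. Its log2 signals were 6.89, 6.53 and 6.61 after antibiotics and 4.9 and 5.67 after control water, a difference of 1.39 ± 0.27 or 2.62-fold (adjusted p = 0.14). Fcnb encodes ficolin B, a soluble lectin that recognises microbial sugars and is made by immature myeloid cells. It had log2 signals of 8.62, 8.25 and 8.14 after antibiotics and 6.81 and 7.52 after control water, a difference of 1.17 ± 0.23 (2.25-fold, adjusted p = 0.14). In both genes control replicate 1 was the lower control array, and without it the differences were 1.01 for Lilrb4a and 0.82 for Fcnb, neither of them called (adjusted p = 0.998). Zbtb16 encodes PLZF, a zinc finger transcription factor of early myeloid cells that glucocorticoids induce in many cell types. Its log2 signals were 5.97, 5.58 and 6.18 after antibiotics and 5.01 and 4.5 after control water, a difference of 1.16 ± 0.22 (2.23-fold, adjusted p = 0.129), and 1.41 without control replicate 1, where it was not called (adjusted p = 0.271). Of the 22 genes of a glucocorticoid response list Zbtb16 alone was called, the list's median difference was 0.05 (0.01 to 0.12 with 1 cMoP array left out), and Tsc22d3, a further glucocorticoid target, differed by 0.36 ± 0.16 (adjusted p = 0.798).

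A pair of bright genes for small calcium or zinc binding proteins rose by less. S100a6, a calcium-binding protein, had log2 signals of 10.55, 10.43 and 10.52 after antibiotics and 9.64 and 9.4 after control water, a difference of 0.98 ± 0.19 (1.97-fold, adjusted p = 0.129). Crip1, a LIM-domain protein that binds zinc, had 11.52, 11.27 and 11.62 against 10.7 and 10.54, a difference of 0.85 ± 0.15 (1.8-fold, adjusted p = 0.122). In both genes the gap between the waters was wider than the range within either water. Without control replicate 1 the differences were 1.1 and 0.93 (adjusted p = 0.449 for both), so their size held and their call did not. Eml5, a microtubule-associated protein (0.8 ± 0.16), Stx1a, a syntaxin of vesicle fusion (0.74 ± 0.15), Rccd1 (0.91 ± 0.18) and Igfbp3, which binds insulin-like growth factors (0.65 ± 0.13), rose by less than 2-fold. These 4 differences, taken without control replicate 1, were 0.83, 0.66, 1.07 and 0.67, and none was called (adjusted p = 0.727, 0.974, 0.449 and 0.727).

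Enzymes of metabolism made up the next group. Hal encodes histidine ammonia-lyase, the first enzyme of histidine breakdown. It had log2 signals of 4.62, 5.19 and 5.15 after antibiotics and 4.05 and 3.64 after control water, a difference of 1.14 ± 0.17 or 2.21-fold (adjusted p = 0.0538). Hal was called in 24 of the 25 other settings and sets of arrays that tested it, and its difference was 1.35 without control replicate 1 (adjusted p = 0.0839). Cbr1 encodes a carbonyl reductase that uses NADPH. It had 7.79, 7.84 and 8.29 after antibiotics and 6.64 and 6.8 after control water, a difference of 1.25 ± 0.19 or 2.38-fold (adjusted p = 0.0538). A dimmer probe set of Cbr1 differed by 0.47 ± 0.18, so its probe sets disagree on the size. The difference of Cbr1 was 1.17 without control replicate 1, where it was not called (adjusted p = 0.449).

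Genes of lipid and sugar handling followed. Lpl encodes lipoprotein lipase, which frees fatty acids from lipoprotein particles, and Fads2 encodes the delta-6 desaturase of polyunsaturated fatty acid synthesis. Lpl had log2 signals of 6.62, 6.53 and 6.78 after antibiotics and 4.85 and 5.55 after control water, a difference of 1.44 ± 0.3 or 2.72-fold (adjusted p = 0.175), and its other probe set differed by 1.05 ± 0.21. Fads2 had 5.92, 5.15 and 5.93 against 4.43 and 4.4, a difference of 1.25 ± 0.25 or 2.38-fold (adjusted p = 0.157). These were the 2 called of 36 measured genes of a fatty acid list (5.56%), of which 18 had a positive and 18 a negative difference and the median was 0. Khk, the ketohexokinase that phosphorylates fructose, had 8.09, 7.91 and 8.18 after antibiotics and 7.44 and 7.27 after control water, a difference of 0.71 ± 0.14 (1.63-fold, adjusted p = 0.163). Hgsnat, a lysosomal acetyltransferase of heparan sulfate breakdown, differed by 0.84 ± 0.16 (1.79-fold, adjusted p = 0.129). Without control replicate 1 the differences of Lpl, Fads2, Khk and Hgsnat were 1.09, 1.27, 0.79 and 0.72, and none was called.

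Some metabolic genes had large differences that did not pass. Fbp1, the gluconeogenic enzyme fructose-1,6-bisphosphatase, had log2 signals of 6.13, 6.39 and 6.3 after antibiotics and 4.47 and 4.82 after control water. Its groups were well apart, and the difference of 1.63 ± 0.36 had an adjusted p of 0.248. In the fit to the 5 cMoP arrays alone, Fbp1 and Clec4a2 were the 2 genes called. Fabp4, a fatty acid binding protein, had 3.75, 3.57 and 3.6 against 2.46 and 2.81, a difference of 1 ± 0.43 with a control mean below the dim limit (adjusted p = 0.79). In the glycolysis and gluconeogenesis list as a whole 13 of 25 measured genes had a positive difference, none was called, and the median was 0.06, which was -0.07 without control replicate 1, with 9 positive, 0 without antibiotic replicate 1 and 0.02 without antibiotic replicate 3.

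Snord65 and Snord13, both small nucleolar RNAs, rose. These RNAs guide the chemical modification of ribosomal RNA. Snord13 is a U13 RNA, which acts in 18S ribosomal RNA processing. Snord65 had log2 signals of 8.88, 8.8 and 8.87 after antibiotics and 6.86 and 7.69 after control water, a difference of 1.58 ± 0.29 or 2.98-fold (adjusted p = 0.122). Snord13 had 10.58, 10.81 and 11.04 against 9.96 and 9.72, a difference of 0.97 ± 0.17 or 1.96-fold (adjusted p = 0.122). The antibiotic arrays of Snord65 were tightly grouped and its control arrays were not, and without control replicate 1 it differed by 1.16 (adjusted p = 0.962). Snord13 then differed by 1.09 and was not called either (adjusted p = 0.409). Of 74 measured small nucleolar RNAs 42 had a positive and 32 a negative difference, 2 were called (2.7%, against 0.131% of all genes) and the median difference was 0.11. That median was 0.03 without control replicate 1 and 0.07 without antibiotic replicate 1. Snord13 was already named by earlier results of these data, so the share called is not independent support. Their differences ran from -1.94 for Snord37 (-1.1 without control replicate 1), whose antibiotic mean was below the dim limit, to 1.6 for Snora69, and neither of these passed (adjusted p = 0.554 and 0.624). Of 483 microRNA genes none was called, 198 had a positive and 285 a negative difference, and 210 were below the dim limit in both waters. Their median was -0.06, and -0.02 without control replicate 1.

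The lower group held 9 genes. Ppic encodes cyclophilin C, a prolyl isomerase of the secretory pathway. Its log2 signals were 6.48, 6.12 and 6.8 after antibiotics and 7.7 and 7.64 after control water, a difference of -1.2 ± 0.22, or 2.3-fold lower (adjusted p = 0.122). Gdf3 encodes a ligand of the TGF-beta family. It had 4.96, 4.98 and 5.64 against 6.42 and 6.62, a difference of -1.33 ± 0.23, or 2.51-fold lower (adjusted p = 0.122). In both genes the control arrays were close to each other and above every antibiotic array, and without control replicate 1 the differences were -1.17 and -1.43 (adjusted p = 0.727 and 0.449). Gdf3 was the 1 called gene of 37 measured in a TGF-beta list, in which 13 had a positive and 24 a negative difference and the median was -0.05 (-0.01 without antibiotic replicate 1).

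The largest falls were those of 2 predicted genes of no stated function. Gm5218 had log2 signals of 3.58, 3.94 and 3.82 after antibiotics and 6.2 and 4.98 after control water, a difference of -1.81 ± 0.33 (adjusted p = 0.122). Gm4983 had 3.15, 3.19 and 3.07 against 5.43 and 3.98, a difference of -1.57 ± 0.31 (adjusted p = 0.156). In both, control replicate 1 was more than 1 log2 unit above control replicate 2. Without it the differences were -1.2 and -0.84 and neither was called (adjusted p = 0.962 and 0.998). The other falls were those of the zinc finger gene Zfp932 (-1.01 ± 0.21), Shisal2a (-0.81 ± 0.13), Ccdc88b, a coiled-coil protein of leukocytes (-0.78 ± 0.16), the transcript E230015B07Rik (-0.78 ± 0.16) and the olfactory receptor gene Olfr695 (-0.75 ± 0.14), whose antibiotic mean of 2.56 was below the dim limit. These 5 differences, taken without control replicate 1, were -0.91, -0.84, -0.75, -0.9 and -0.78, and none was called (adjusted p = 0.998, 0.435, 0.938, 0.513 and 0.513).

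The same contrast was then set beside that in CMPs and GMPs, which asks whether the change belongs to cMoPs or is seen in the progenitors before them. Each progenitor has control arrays of its own. Of the 29 genes, 23 had the same sign of difference in GMPs (79.3%, against 53.5% of all genes) and 19 in CMPs (65.5%, against 51.5%). Called in GMPs too were 5 of them, and 0 were called in CMPs, where limma called 9 genes in all (0.0406%) and 1606 had an unadjusted p under 0.05. In GMPs 16 genes were called (0.0721%). The 5 shared with GMPs were Snord13 (1.34 ± 0.17 in GMPs, adjusted p = 0.00932), Clec4a2 (1.15 ± 0.18, 0.0601), Clec4b2 (1.52 ± 0.26, 0.0728), Ppic (-1.24 ± 0.22, 0.101) and Zbtb16 (1.09 ± 0.22, 0.197). For these 5 the difference between the cMoP and the GMP effect ran from -0.37 to 0.74, and none passed the test of that difference. Ppic also had a negative difference in CMPs, -0.94 ± 0.2 (adjusted p = 0.231), and Gdf3 differed by -0.71 ± 0.21 in CMPs and -0.87 ± 0.23 in GMPs.

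**Figure D3:**
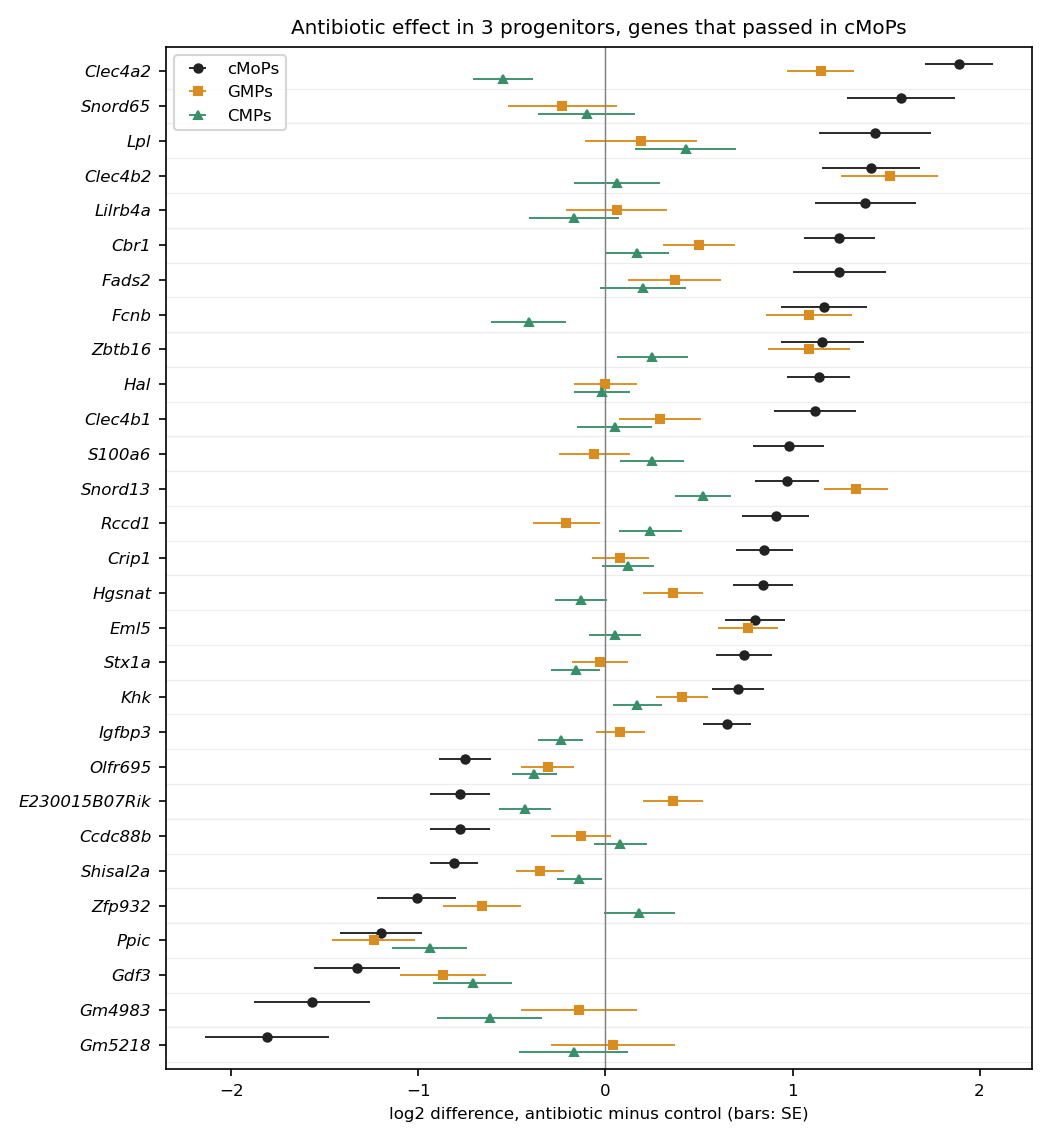
Log2 difference between antibiotic and control water, with its standard error, in cMoPs, GMPs and CMPs for the 29 genes called in cMoPs. Clec4a2 is at 1.89 in cMoPs, 1.15 in GMPs and -0.55 in CMPs, while Hal, at 1.14 in cMoPs, is at 0 in GMPs and -0.02 in CMPs.

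The antibiotic effect itself differed between cMoPs and CMPs in 2 genes (0.00902% of those tested), by limma's test of the difference of the differences. For Clec4a2 the effect was 1.89 ± 0.18 in cMoPs and -0.55 ± 0.16 in CMPs, a difference of 2.44 ± 0.24 (adjusted p = 0.00083). Its mean log2 signal in CMPs was 3.72 after antibiotics and 4.27 after control water, lower than in cMoPs and in GMPs, where it was 7.85 and 6.7. The other gene was Scin, which encodes the actin-severing protein scinderin. It differed by -0.08 ± 0.21 in cMoPs and 1.71 ± 0.18 in CMPs, a difference of -1.79 ± 0.28 (adjusted p = 0.1). Scin was no longer called without cMoP antibiotic replicate 1 or 2, cMoP control replicate 1, CMP antibiotic replicate 1 or CMP control replicate 1 (adjusted p = 0.299, 0.311, 0.43, 0.404 and 0.289). The next genes did not pass. Tgfbi, an extracellular matrix protein of monocytes, differed by 0.41 ± 0.19 in cMoPs and -1.08 ± 0.17 in CMPs (difference 1.49 ± 0.26, adjusted p = 0.211), and Fcnb by 1.17 ± 0.23 and -0.41 ± 0.2 (difference 1.58 ± 0.3, adjusted p = 0.286).

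Between cMoPs and GMPs no gene passed the test of the difference, with limma's unadjusted p under 0.05 in 1177 genes where 1109 are expected. Without cMoP control replicate 2 it called 20. The smallest p-values were those of Orm2 and Orm1, near-identical genes for the acute-phase protein orosomucoid, which the probe sets may not tell apart. Orm1 had log2 signals of 4.06, 4.12 and 3.8 in cMoPs after antibiotics and 4.6 and 4.99 after control water. It differed by -0.8 ± 0.2 in cMoPs and 0.74 ± 0.2 in GMPs (difference -1.54 ± 0.29), and Orm2 by -0.92 ± 0.24 and 0.94 ± 0.24 (difference -1.86 ± 0.33, adjusted p = 0.712 for both). Hal, with 0 ± 0.17 in GMPs, had a difference of effects of 1.14 ± 0.24 against GMPs (adjusted p = 0.712) and of 1.17 ± 0.23 against CMPs (adjusted p = 0.286). Lilrb4a, with 0.06 ± 0.27 in GMPs and -0.17 ± 0.24 in CMPs, and Snord65, with -0.23 ± 0.29 and -0.1 ± 0.26, did not pass either, so these genes are not shown to respond in cMoPs alone.

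Lists of genes for lineages and pathways were read by their counts and medians, with the median of all genes at -0.01 with 47.8% of all differences above 0 and 52.2% below. Of 37 measured genes of the monocyte programme, 25 had a positive difference, 12 a negative one, 1 was called (S100a6, 2.7%) and the median difference was 0.15. Averaged over the list, the log2 signal was 8.17, 8.09 and 8.25 on the antibiotic arrays and 7.94 and 8.04 on the control arrays, apart but close. The median was 0.08 without control replicate 1, on which the list was lowest. It was -0.23 in CMPs and -0.11 in GMPs. The 8 monocyte markers described above had 4 positive and 4 negative differences in cMoPs. Fn1, the matrix protein fibronectin, had log2 signals of 6.35, 6.97 and 6.4 after antibiotics and 5.53 and 5.63 after control water (difference 0.99 ± 0.29, adjusted p = 0.587). S100a4, a calcium-binding protein of monocytes, had 9.37, 9.38 and 9.36 against 8.88 and 8.58 (0.64 ± 0.19, adjusted p = 0.588), and Lyz2, the lysozyme of monocytes and macrophages, differed by 0.41 ± 0.15. Mpeg1, a pore-forming protein of macrophages, had a difference of the other sign, -0.42 ± 0.19.

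Granule genes, like those of the monocyte programme list, had mostly positive differences in cMoPs. Of 23 genes of primary granules and early neutrophils 18 had a positive difference, 1 was called (Fcnb, 4.35%) and the median was 0.15, which was 0.04 without control replicate 1. Cd63, a membrane protein of granules and lysosomes, had log2 signals of 10.57, 10.5 and 10.61 after antibiotics and 9.75 and 10.06 after control water (0.66 ± 0.15, adjusted p = 0.341). Of 30 genes of late neutrophil granules 20 had a positive and 10 a negative difference and none was called. An unadjusted p under 0.05 was found for 8 (26.7%, against 6.2% of all genes), 6 of them higher and 2 lower. The median of this list was 0.19, and it was 0.09 without antibiotic replicate 1 and 0.12 without control replicate 1. Chil3, a chitinase-like protein of neutrophils and macrophages, had 9.28, 9.7 and 9.68 against 8.42 and 8.56 (1.06 ± 0.23, adjusted p = 0.248), and Stfa1, a cysteine protease inhibitor, had 4.77, 4.54 and 4.29 against 2.99 and 3.27 (1.4 ± 0.4, adjusted p = 0.554). The lowest difference of the list was that of Orm1, -0.8 ± 0.2 (adjusted p = 0.425), with all antibiotic arrays below both control arrays. Chil3 had a like difference in GMPs, 1.19. The 10 neutrophil markers described above had 5 positive and 5 negative differences and overlapping means, and the part of neutrophil RNA in these values was not tested.

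Genes of the type I interferon response, which interferons alpha and beta switch on in most cells and which block viral replication, had the opposite sign. Of 44 measured genes 34 had a negative and 10 a positive difference, none was called, and the median difference was -0.25. The list's mean log2 signal was 5.59, 5.5 and 5.68 after antibiotics and 5.77 and 5.93 after control water. All antibiotic arrays were thus below both control arrays, by little against the nearer one. In 13 of the 44 genes every antibiotic array was below both control arrays, where 11.4% of all genes were, and in 3 every antibiotic array was above (9.59% of all genes). In all, 9 had a negative difference with an unadjusted p under 0.05 (20.5%, against 3.44% of all genes). The median stayed between -0.32 and -0.18 when each cMoP array was left out in turn. It was -0.34 in CMPs and -0.2 in GMPs.

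Single genes of this response were dim to moderate in cMoPs, and no single gene passed the test. Isg15, a ubiquitin-like modifier, had log2 signals of 4.53, 4.02 and 4.52 after antibiotics and 4.96 and 5.74 after control water, a difference of -0.99 ± 0.31 (adjusted p = 0.617). Rtp4 had 2.68, 3.13 and 3.84 against 4.08 and 4.85 (-1.25 ± 0.38, adjusted p = 0.617), and Oasl2, of the oligoadenylate synthetase family, had 4.27, 4.08 and 4.56 against 4.88 and 5.42 (-0.85 ± 0.24, adjusted p = 0.554). In each of these 3 genes control replicate 2 was the highest array, and without it the differences were -0.6, -0.86 and -0.58. The cytosolic RNA sensors had differences of the same sign, Ifih1 (MDA5) of -0.61 ± 0.19, Ddx58 (RIG-I) of -0.67 ± 0.21 and Dhx58 (LGP2) of -0.57 ± 0.2. Oas3 differed by -0.45 ± 0.21 in cMoPs, -0.86 in CMPs and -0.95 in GMPs, and by -0.25 in cMoPs without control replicate 1.

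The promoter of Isg15 is shown as an example of the element through which this response is known to act. It is the 250 bases before the annotated start at chr4:156200819-156201068, minus strand, GRCm38.p6 of RefSeq, and capitals mark 3 overlapping matches to the letters of the interferon-stimulated response element (GAAA, any 2 bases, GAAA) between -78 and -57.
Isg15: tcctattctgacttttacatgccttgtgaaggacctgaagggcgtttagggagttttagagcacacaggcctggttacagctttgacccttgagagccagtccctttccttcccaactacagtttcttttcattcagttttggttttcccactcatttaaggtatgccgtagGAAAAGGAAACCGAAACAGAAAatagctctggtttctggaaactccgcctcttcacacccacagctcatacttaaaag
These letters were found on either strand at 15 of the 34 list genes that had a promoter in the table (44.1%), and at 3.46% of all 27025 genes. Among the 14 promoters of genes that rose, that of Clec4b1 alone held them (7.14%), at a place that overlaps the PU.1 match farther from its start. Of the 5 promoters found for 4 of the 9 genes that fell, 0 held them.

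The interferon-gamma list moved with single arrays. Of 27 genes 22 had a negative difference and the median was -0.17. Without control replicate 2 it was -0.01, with 13 positive and 14 negative, and without antibiotic replicate 2 it was -0.08, with 10 and 17. Cxcl9, a chemokine that interferon gamma induces, had log2 signals of 3.36, 3.24 and 3.28 after antibiotics and 4.42 and 3.85 after control water (-0.84 ± 0.27, adjusted p = 0.617). Its difference was -0.56 without control replicate 1. Irgm1, a GTPase of the same response, differed by -0.61 ± 0.23. Tap1, the peptide transporter of antigen presentation, differed by -0.38 ± 0.17. The genes of Toll-like receptor and NF-kB signalling were balanced. Of 43 measured, 24 had a positive and 19 a negative difference, none was called and the median was 0.04. Tlr8, a receptor for RNA, had 4.56, 4.74 and 4.46 against 3.66 and 4.1 (0.71 ± 0.18, adjusted p = 0.448), and its difference was 0.49 without control replicate 1.

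**Figure D4:**
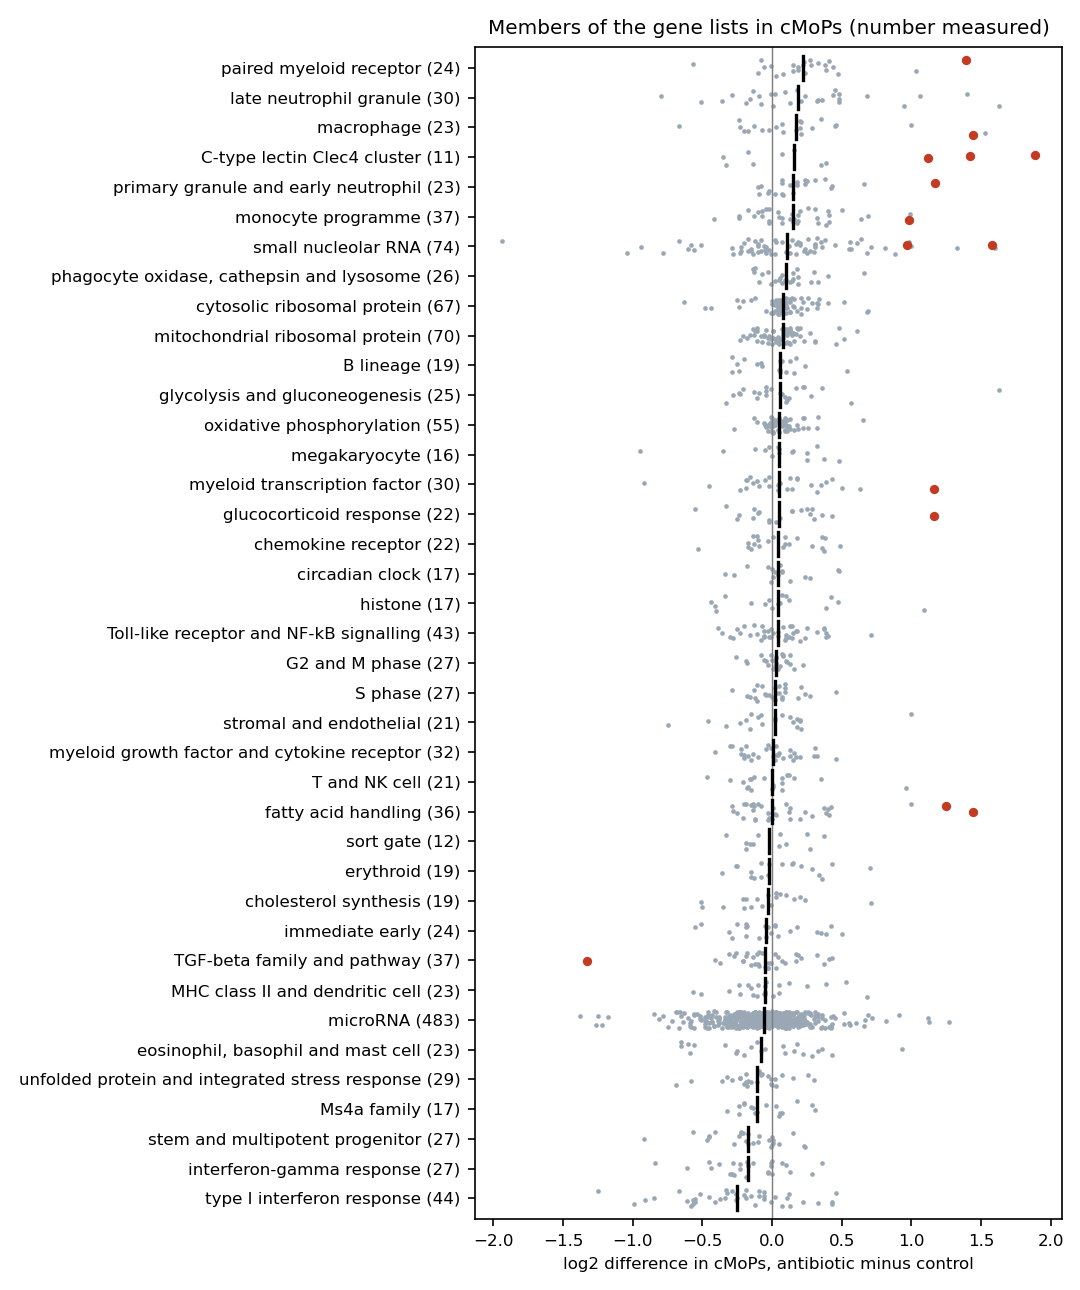
Log2 differences between antibiotic and control water in cMoPs for the measured genes of the gene lists, with 1 point per gene, called genes in red and the median of each list as a bar. The median is -0.25 for the type I interferon response and 0.15 for the monocyte programme, and the median of all genes is -0.01.

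Genes of stem cells and multipotent progenitors, which are switched off as cells commit to a lineage, had mostly negative differences. Of 27 measured 21 were negative and 6 positive, none was called and the median was -0.17. Without control replicate 1 the median was -0.04, with 11 positive and 16 negative, and without antibiotic replicate 1 it was -0.09. Hoxa9, a homeobox factor of progenitors, had log2 signals of 5.23, 5.46 and 5 after antibiotics and 6.35 and 5.96 after control water (-0.92 ± 0.22, adjusted p = 0.382). Muc13 had 7.82, 8.03 and 8.09 against 8.81 and 8.29 (-0.57 ± 0.15, adjusted p = 0.536, and -0.31 without control replicate 1), and Meis1, the partner of Hox proteins, had 5.51, 5.05 and 5.51 against 5.83 and 5.78 (-0.45 ± 0.19). In all 3 genes the antibiotic arrays lay below both control arrays.

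Paired myeloid receptors, families in which activating and inhibitory members stand side by side, had the highest median of the lists with 20 or more genes. Of 24 measured genes 19 had a positive difference, 1 was called (Lilrb4a, 4.17%), and the median was 0.22, with a range of 0.19 to 0.25 when each cMoP array was left out. Cd300lg had log2 signals of 4.03, 4.22 and 3.68 after antibiotics and 3.07 and 2.82 after control water (1.03 ± 0.23, adjusted p = 0.277). Clec12a, an inhibitory lectin of monocytes outside the Clec4 cluster, had 10.99, 10.99 and 10.96 against 10.6 and 10.7 (0.33 ± 0.18, adjusted p = 0.844), a small gap in a bright gene. Cd300ld3 had a difference of the other sign, -0.57 ± 0.21. Of 23 macrophage genes 15 had a positive difference, 1 was called (Lpl, 4.35%) and the median was 0.17, which was 0.02 without control replicate 2 and 0.03 without antibiotic replicate 3. Fcgr1, the high-affinity Fc receptor, differed by -0.67 ± 0.21.

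**Figure D5:**
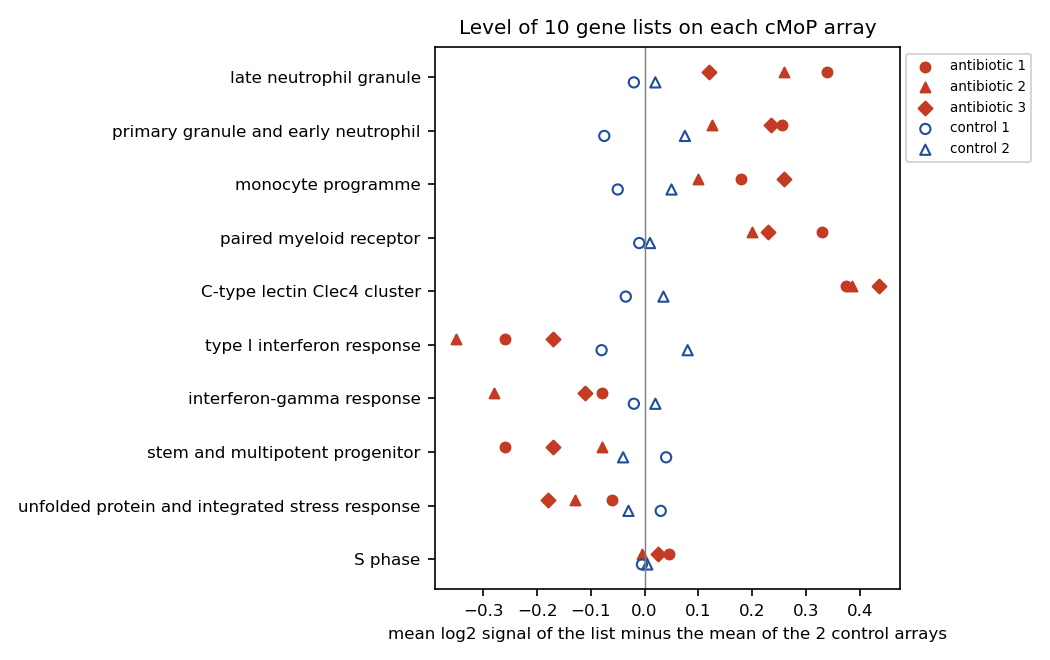
Mean log2 signal of 10 gene lists on each of the 5 cMoP arrays, drawn relative to the mean of the 2 control arrays, with filled symbols for antibiotic and open symbols for control water. Before that shift, the type I interferon response was at 5.5 to 5.68 on the antibiotic arrays and at 5.77 and 5.93 on the control arrays, and the monocyte programme at 8.09 to 8.25 and at 7.94 and 8.04.

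Lists of growth and division had medians near 0. The medians were 0.02 over 27 genes of S phase and 0.03 over 27 of the G2 and M phases, and none of them was called. With quantile normalization these medians were -0.01 and 0. Of 67 cytosolic ribosomal protein genes 57 had a positive difference with a median of 0.08. The median was 0.02 without control replicate 1, with 39 positive, and quantile normalization gave 0.04, with 48 positive. Of 70 mitochondrial ribosomal protein genes 49 had a positive difference with a median of 0.08. That median was 0.03 without control replicate 1 (39 positive) or antibiotic replicate 3 (40 positive), 0.05 without antibiotic replicate 1, and 0.04 with quantile normalization (42 positive). Of 55 genes of oxidative phosphorylation 42 had a positive difference with a median of 0.05. That median ran from 0.03 to 0.11 with 1 cMoP array left out, with 36 positive without control replicate 1, and quantile normalization gave 0.03, with 33 positive. None in these 3 lists was called, and the array means of each list overlapped between the waters. Of 29 stress response genes, those that unfolded proteins or amino acid shortage induce, 22 had a negative difference, none was called and the median was -0.11. Asns, the asparagine synthetase, had log2 signals of 6.47, 6.25 and 6.27 after antibiotics and 7 and 7.04 after control water (-0.69 ± 0.17, adjusted p = 0.352). Cholesterol synthesis was mixed, with 8 positive and 11 negative differences and a median of -0.03. Its genes Cyp51 (0.71 ± 0.2) and Mvd (-0.5 ± 0.18, and -0.3 without control replicate 1) had opposite signs.

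Lists of genes of other lineages had differences of both signs. Erythroid genes had 9 positive and 10 negative differences with a median of -0.02, megakaryocyte genes 11 and 5 with 0.05, B lineage genes 11 and 8 with 0.06, and T and NK genes 11 and 10 with 0. None of these was called. The mean log2 signal of the erythroid list was 5.35, 5.34 and 5.29 after antibiotics and 5.25 and 5.28 after control water, apart by little. With 1 cMoP array left out, the medians ran from -0.02 to 0.13 for megakaryocyte and from -0.07 to 0.11 for B lineage genes, so neither has a stable sign. Cpa3, a protease of mast cells and their progenitors, had log2 signals of 4.94, 4.74 and 4.27 after antibiotics and 3.33 and 4.12 after control water (0.93 ± 0.21, adjusted p = 0.301), and 0.53 without control replicate 1. In its list of 23 genes for eosinophils, basophils and mast cells 10 had a positive and 13 a negative difference with a median of -0.08 (-0.01 without control replicate 1). The mean log2 signal of that list was 4.09, 4.09 and 4.01 after antibiotics and 4.15 and 4.1 after control water, also apart by little. Car1, carbonic anhydrase of erythroid cells, had 6.68, 6.37 and 6.29 against 6.05 and 5.45 (0.7 ± 0.2, adjusted p = 0.549). Of 23 genes of dendritic cells and MHC class II, 8 had a positive and 15 a negative difference, none was called, and the median was -0.05. The chains of 1 class II molecule had opposite signs. H2-Ab1 had 6.62, 7.07 and 6.41 against 5.92 and 6.43 (0.53 ± 0.19, adjusted p = 0.682, and 0.27 without control replicate 1), overlapping between the waters, and H2-Aa had means of 3.52 and 4.03 (-0.51, adjusted p = 0.82).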

How the data were processed

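RNA of sorted progenitors was measured on 16 mouse gene arrays. The authors deposited log2 signals, 1 for each probe set on an array. Per the submitters' processing notes, the tools were Transcriptome Analysis Console and Partek. How probes were summarised and arrays normalized is not given in the sources used here, nor are the versions. The array quartiles lay close together (medians 4.04 to 4.17), so the values were used as deposited. The arrays carry no read depth, and their number limits the precision.

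Of 41345 probe sets, 23521 had 1 gene symbol in the platform annotation, 1814 several and 16010 none. The brightest single-symbol probe set stood for each of 22180 genes. limma 3.58.1 in R 4.3.3 fitted 1 mean per progenitor and water over all 16 arrays with a moderated spread (10 residual degrees of freedom), and p-values were adjusted by Benjamini-Hochberg over all genes, with calls under 0.2. The study's stated method is an analysis of variance at the same rate. Differences are antibiotic minus control in log2 units, with their standard errors. The fit was tested on simulated data with independent noise for each gene. In these data 67, 67 and 66 genes were changed by 1, 1.5 and 2 log2 units. The fit called 59 of 67 changes of 1 log2 unit, and 64 of its 255 calls were false. The threshold is more lenient when many genes change, so that share need not hold for the real data. There 60 genes were at least 2-fold apart in cMoPs, and 16 of them were called. An array that stands apart as a whole, as control replicate 1 does, was not simulated. Named were all called genes, members of smallest p from 39 gene lists, genes of smallest p in the difference tests, the gate genes and 12 genes that earlier results name. The members and lists were chosen with earlier results of these data known. Promoters came from RefSeq's GRCm38.p6 table. Alternatives were other array sets, scalings, filters, probe set rules, variances, array weights and a replicate block.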

Additional observations from a re-analysis of the deposited data

Results flagged for a closer look

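The antibiotic effect differed between cMoPs and CMPs for Clec4a2 by 2.44 and for Scin by -1.79 on the log2 scale, by limma's test of the difference of effects. For Scin the difference lay in CMPs, with -0.08 in cMoPs and 1.71 in CMPs.

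Calls were also made among probe sets without a gene symbol, at a share near that of all probe sets. When all 41345 probe sets were tested, 9 were called (0.0218%), and of the 16010 without a gene symbol 5 were (0.0312%), each lower after antibiotics. Probe set 17200147 had log2 signals of 2.71, 2.76 and 3.1 after antibiotics and 4.74 and 5.29 after control water, a difference of -2.16 ± 0.3 (limma adjusted p = 0.138). The differences of the other 4 were -1.52 for 17437565, -1.22 for 17535282, -1.07 for 17209871 and -0.94 for 17411147, and in each the groups did not overlap. The antibiotic signals of 17535282 (2.77, 2.62 and 2.61) were below the dim limit. So were the signals of 2.71 and 2.76 of 17200147, and the size of its difference is uncertain. What RNA these probe sets measure is not known from the annotation used here.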

How the results depend on the processing

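The 29 calls in cMoPs became 2 with the 5 cMoP arrays alone, 9 with every probe set tested, 8 with unmoderated variances and 1 at an adjusted p under 0.05, and ran from 3 to 226 when 1 array was left out. Quantile normalization gave 24, median centring 24, genes brighter than the median gene 21, the mean of probe sets 29, trend and robust variances 32 and array weights 28. Over 22 pairs of samples with equal replicate number the deviations correlated weakly, at -0.049 to 0.104. Still, 4 of 6 CMP arrays correlated best with their own number in the other water. Whether samples of equal or other number shared a mouse or a sort day is not given in the labels, and these correlations cannot settle it. With the replicate block, 8 genes were called, 7 of them among the 29. The same block gave 3 genes that differ between cMoPs and CMPs and 0 between cMoPs and GMPs. The 2 genes that differ between cMoPs and CMPs became 4 with quantile normalization, brighter genes or trend and robust variances, 6 with median centring, and 1 with every probe set or at an adjusted p under 0.05, and ran from 1 to 34 with 1 array left out. The 0 genes that differ from GMPs stayed 0 under each setting that kept all arrays, and ran from 0 to 20 with 1 array left out, 20 without cMoP control replicate 2. Among the named genes whose cMoP difference was followed across settings, Ly6c2 alone changed sign, to -0.09 with the replicate block. The cMoP differences of Scin, Tgfbi, Orm2, Gp9 and H2-Aa were not followed. The sign of all 29 called differences held in each setting. Where only an array was left out it could not change, as their antibiotic and control arrays lay apart. The cause of these shifts was not tested. No detection calls were used, so differences of dim genes are uncertain.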
